A study of Rattus norvegicus with 4 samples.

Results

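Genes of 3 hormone systems that set vessel tone and salt balance, the angiotensin, natriuretic peptide and endothelin systems, were followed in rat visceral fat. The members were 8 genes, chosen by symbol: Agt, Ace, Agtr1a, Npr1, Npr3, Edn1, Ednra and Ednrb. All probe sets whose single symbol in the platform annotation was one of these were taken, which gave 8 probe sets of 6 genes, out of 15866 probe sets and 10411 singly named genes on the array. Ednra and Ednrb, the 2 endothelin receptors, had no such probe set in the annotation used here and were not analysed here. Agtr1a and Ace had 2 probe sets each, and the one with the highest mean signal over the arrays was taken as the main probe set of its gene.

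The RNA was from visceral fat of 130-day-old male Wistar rats and was hybridised to 4 single-colour arrays, 2 labelled obese and 2 labelled control. The labels give no diet, genotype, drug or surgery for either group, and do not say how obesity arose or whether each RNA was 1 animal or a pool. The spread between the 2 arrays of a group may therefore be technical, and it is all that the p-values below measure.

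Angiotensinogen, the product of Agt, is the precursor of the angiotensin peptides, and angiotensin-converting enzyme, Ace, makes angiotensin II from its cut product. Angiotensin II acts on its type 1 receptor, encoded in the rat by Agtr1a and Agtr1b, to contract vessels and raise aldosterone, and fat is a known site of angiotensinogen production outside the liver. Natriuretic peptides oppose it: Npr1 is the receptor with guanylate cyclase activity that makes cyclic GMP and, in human adipocytes, stimulates lipolysis, while Npr3 is the clearance receptor that takes the peptides out of circulation. Edn1 encodes endothelin-1, a constrictor peptide made mainly by endothelium, which acts on Ednra and Ednrb.

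From the values, the arrays had been scaled to nearly the same trimmed mean, so their totals could not differ much. The median signal was 81.9 and 74.9 on obese replicates 1 and 2, and 82.6 to 82.9 on the control arrays. Adipocyte genes were bright on every array, among them Cfd (adipsin, 3346.2 and 3533.9 in obese, 3440.4 and 3515.8 in control tissue) and Fabp4, the fatty acid binding protein of adipocytes. Obese replicate 1 stood apart in other tissues' genes. The summed signal of 16 smooth muscle and pericyte markers was 8988.4 there and 5038.3 on obese replicate 2, against 5009.5 and 5049 on the control arrays. The summed signal of 10 pancreas markers was 2342.9 on obese replicate 1 and 346.9 on obese replicate 2, against 453 and 1058.3 on the control arrays. Mesothelial and epithelial markers summed to 2157.4 on obese replicate 1 and 410.4 on obese replicate 2, against 858.1 and 1033.1 on the control arrays. Endothelial markers, 13 genes, summed to 4157.6 and 3874.3 in obese and to 4245.6 and 4187.6 in control tissue. In whole tissue, fewer cells of a type and less RNA per cell cannot be told apart.

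**Figure D1:**
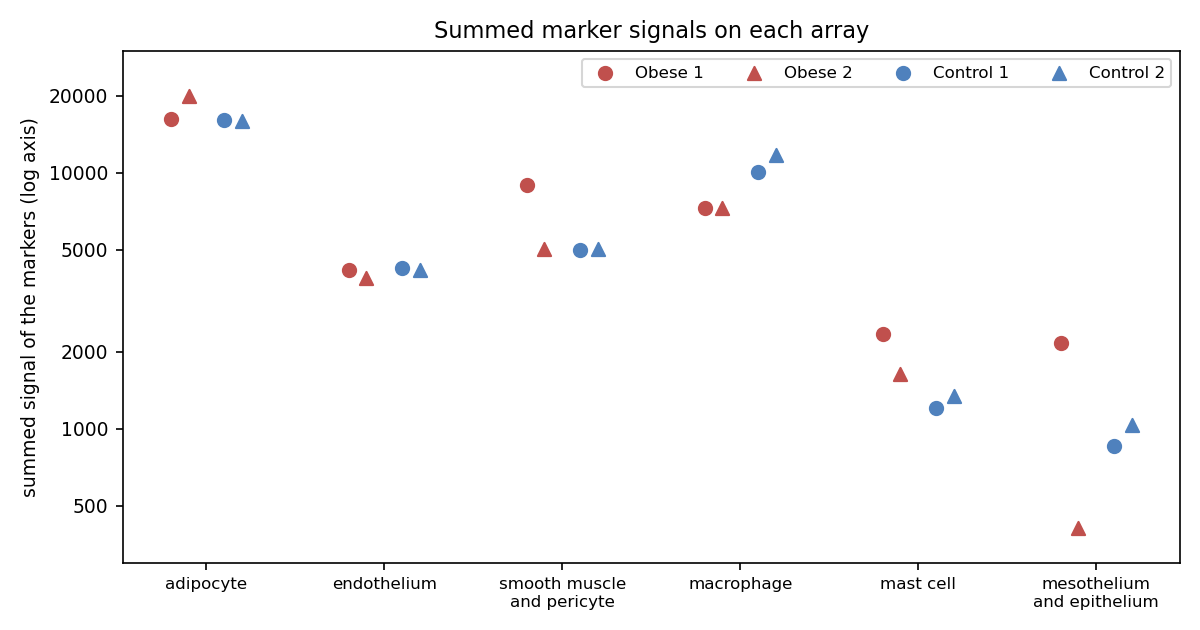
Summed array signal (log axis) of the measured markers of 6 cell types on each of the 4 arrays, obese in red and control in blue, with circles for replicate 1 and triangles for replicate 2. Smooth muscle and mesothelial markers are highest on obese replicate 1, the endothelial sums lie between 3874.3 and 4245.6, and the macrophage sums are lower on both obese arrays.

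None of the 6 measured genes differed between obese and control fat beyond the spread between arrays. The obese and control signals overlapped for all 8 probe sets, which stand for 6 genes. Of the 12929 probe sets tested on the whole array, 40% had groups that did not overlap. Of the ways to order 2 arrays against 2, a share of 0.333 separates the groups. In limma's moderated test 0 of the 8 passed at an adjusted p of 0.05, beside 0% of all probe sets, and 0 of the 8 had an unadjusted p under 0.05, beside 8.3% of all. A plain test without moderation also put 0 of the 8 under an unadjusted p of 0.05. The adjusted p-values in limma lay between 0.80 and 0.98. All 8 probe sets were above the floor of 20.8, the 20th percentile of all signals and the level below which signals were not told apart, on all 4 arrays.

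**Figure D2:**
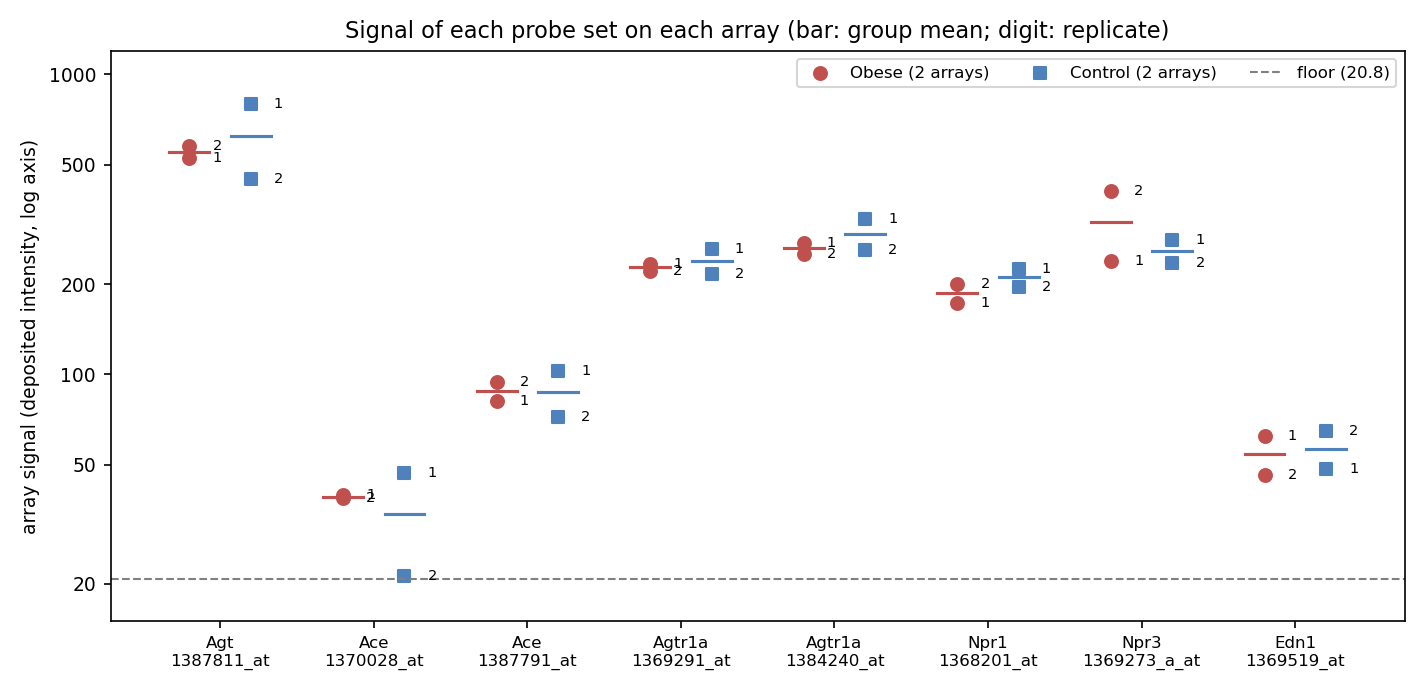
Deposited signal (log axis) of each of the 8 probe sets on the 2 obese arrays (red circles) and the 2 control arrays (blue squares), with a digit for the replicate, a short line for the group mean and a dashed line at the floor of 20.8. Obese and control points overlap for every probe set, and the second control array lies just above the floor for one Ace probe set.

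Angiotensinogen varied more between the control arrays than between the groups. Agt read 527.8 and 578.6 on the obese arrays and 799.6 and 448.2 on the control arrays. The 2 obese readings lay between the control readings, so the groups overlapped completely. The obese mean was 553.2 ± 35.9 and the control mean 623.9 ± 248 (SD, n = 2 each). The log2 difference was -0.12 ± 0.27 (SE; limma adjusted p = 0.93), with a 95% interval from -0.79 to 0.56. Without control replicate 1 the difference was 0.30, the opposite direction, so the sign rests on that array. Since the liver is the main source of circulating angiotensinogen, liver markers were set beside it: 9 genes summed to 489.3 and 462.2 on the obese arrays and to 362.3 and 460.3 on the control arrays. The part of liver RNA in the Agt reading was not tested.

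The converting enzyme gene Ace was measured by 2 probe sets, and neither separated the groups. Its main probe set read 81.8 and 94.1 in obese and 102.5 and 72.0 in control tissue. Both obese readings again lay between the control readings. The log2 difference was 0.030 ± 0.23 (SE; limma adjusted p = 0.98), with a 95% interval from -0.54 to 0.60. The second probe set read 39.5 and 38.6 in obese and 46.9 and 21.3 in control tissue, the last value lying just above the floor. Its log2 difference of 0.31 ± 0.38 (limma adjusted p = 0.87) had the widest interval of the set, from -0.63 to 1.24, and turned to -0.26 without control replicate 2. Ace is made by endothelium and by macrophages. The summed signal of 11 macrophage markers was 7273.6 and 7314.4 in obese and 10092.5 and 11718.6 in control tissue, and the part of either cell type in the Ace reading was not tested.

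The type 1 angiotensin receptor gene Agtr1a was also measured by 2 probe sets. Its main probe set read 273.7 and 252.2 in obese and 330.1 and 259.0 in control tissue. Only control replicate 1 stood above the rest, and obese replicate 1 lay above control replicate 2. The difference was -0.15 ± 0.16 on the log2 scale (limma adjusted p = 0.84), with a 95% interval from -0.55 to 0.25. The second probe set read 233.9 and 221.7 in obese and 262.1 and 216.8 in control tissue, with the arrays in nearly the same order. It differed by -0.066 ± 0.15 (adjusted p = 0.93), and by 0.013 when each array was centred on its median. Without control replicate 1, the 2 probe sets gave 0.021 and 0.071. Smooth muscle carries this receptor, and its 16 markers summed to 8988.4 and 5038.3 in obese and to 5009.5 and 5049 in control tissue. Their part in the Agtr1a reading was not tested.

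Of the natriuretic peptide receptors, Npr1 read 173.2 and 200 in obese and 225.1 and 196.2 in control tissue. Obese replicate 2 lay above control replicate 2, so that the groups overlapped by a narrow margin. The obese mean was 186.6 ± 19.0 and the control mean 210.65 ± 20.4 (SD, n = 2 each), and the log2 difference of -0.18 ± 0.15 (SE; limma adjusted p = 0.80) had a 95% interval from -0.56 to 0.21. Npr1 was the only one of the 8 probe sets that kept its direction under every alternative tried, with values from -0.28 to -0.071. Its t, ranked by size, was at the 62.4 percentile of all tested probe sets.

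The clearance receptor gene Npr3 had the largest difference among the main probe sets, and it rested on 1 array. Npr3 read 237.9 and 407.3 in obese and 281.0 and 234.7 in control tissue. Obese replicate 2 stood well above the other 3 arrays, and obese replicate 1 lay inside the control range. The obese mean was 322.6 ± 120 and the control mean 257.85 ± 32.7 (SD, n = 2 each). The log2 difference was 0.28 ± 0.27 (SE; limma adjusted p = 0.82; 95% interval from -0.38 to 0.94). The difference was 0.67 without obese replicate 1 and -0.11 without obese replicate 2. Obese replicate 2 was also the array with the highest leptin signal: Lep, the adipocyte hormone, read 539.5 and 1256.4 in obese and 597.4 and 330.2 in control tissue. The adipocyte markers summed to 16218.1 and 19883.6 in obese and to 16100.8 and 16002.8 in control tissue, and their part in the Npr3 reading was not tested.

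Edn1, the endothelin-1 gene, did not separate the groups. It read 62.2 and 46.1 in obese and 48.5 and 64.5 in control tissue. Each group held 1 high and 1 low array, and the means were 54.15 ± 11.4 for obese and 56.5 ± 11.3 for control tissue (SD, n = 2 each). The log2 difference was -0.063 ± 0.25 (SE; limma adjusted p = 0.96), with a 95% interval from -0.68 to 0.56. Its sign was not settled: median centring, quantile normalization and cyclic loess gave 0.016, 0.030 and 0.033. The sign also turned without obese replicate 2 (0.15) and without control replicate 2 (0.14).

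**Figure D3:**
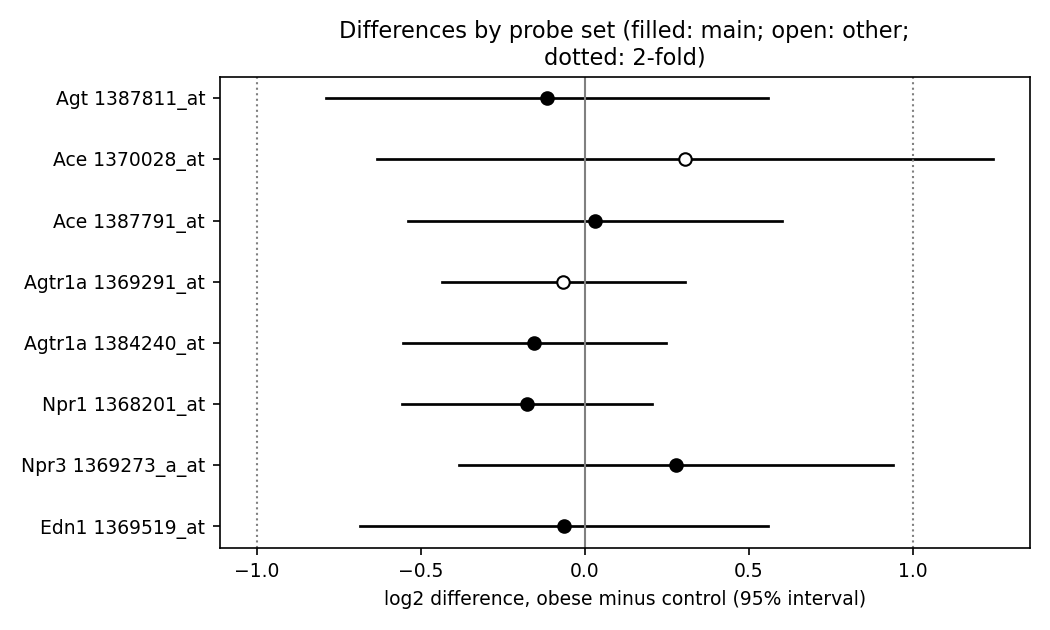
Log2 difference, obese minus control, of each of the 8 probe sets with its 95% interval from the limma fit. Filled circles are the main probe sets, open circles the other probe set of Ace and of Agtr1a, and dotted lines mark a 2-fold difference. Every interval crosses 0, and the intervals of all 6 main probe sets stay inside 2-fold.

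For the 6 main probe sets the unadjusted 95% interval lay inside a 2-fold difference in either direction. These intervals rest on limma's moderated error. In the plain test without moderation the SE was 0.423 for Agt, 0.409 for Npr3, 0.298 for Edn1 and 0.274 for the main Ace probe set. For these genes the 2-fold bound rests on the moderation. That test also has fewer degrees of freedom, so its intervals are wider for all 6 main probe sets. Among the main probe sets 4 were lower and 2 higher in obese tissue, with a median log2 difference of -0.089 beside -0.040 over 9011 genes tested, each on 1 probe set. All 8 probe sets together ranked between the 8.31 and the 62.4 percentile of all tested probe sets by the size of t.

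Within the groups, the control arrays differed most for Agt and Ace. Agt differed by 0.84 on the log2 scale between control replicates 1 and 2, a gap at the 97.6 percentile of tested probe sets by size, and the 2 Ace probe sets by 1.14 and 0.51. In the obese pair Agt differed by -0.13, and the Ace probe sets by 0.033 and -0.20. Control replicate 1 was above control replicate 2 on 7 of the 8 probe sets, all but Edn1, beside 49.3% of all tested probe sets. In the obese pair, replicate 1 was above replicate 2 on 4 of 8, beside 56.7% of all, and the largest gap was that of Npr3, -0.78.

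**Figure D4:**
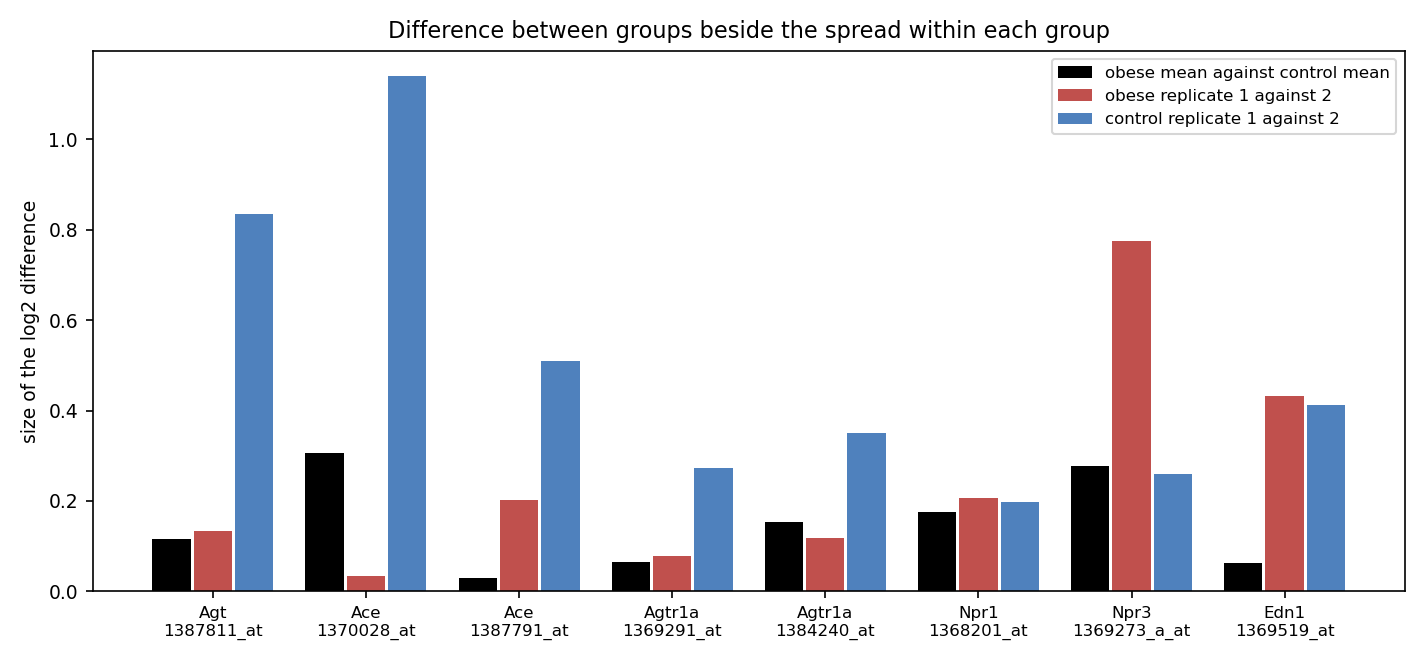
Size of the log2 difference between the group means (black) beside the size of the difference between the 2 obese arrays (red) and between the 2 control arrays (blue) for each of the 8 probe sets. The tallest bars are those for the control pair in Agt and one Ace probe set and for the obese pair in Npr3.

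Profiles like those of Npr1 and Npr3, the members with the largest t in size, were sought as the smallest root mean square distance between centred log2 signals over the 4 arrays, among 9010 other genes. Nearest to Npr1 were Mtus1 (0.0144), Rbm17 (0.0147) and Mpg (0.0176), and 537 genes lay within 0.1. Mtus1 encodes a protein known to bind the type 2 angiotensin receptor. Nearest to Npr3 were Ak3 (0.0316), a mitochondrial adenylate kinase, Surf6 (0.0481) and Serpina11 (0.0617), with 29 genes within 0.1. Over 4 arrays such likeness is a description of these arrays.

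The other genes of the angiotensin system were mixed. Of 16 measured genes 15 were tested: 6 were higher and 9 lower in obese tissue, 3 and 2 of them with groups that did not overlap, and 0 passed limma's test over all probe sets (2 with an unadjusted p under 0.05). Over the whole array 15.6% of probe sets were separated upwards and 24.4% downwards. The median log2 difference was -0.030, beside -0.040 over all genes.

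The enzymes with the largest positive t, Cma1 and Cpa3, are both known from mast cells. Cma1, a chymase whose human counterpart forms angiotensin II without Ace, read 395.8 and 266.0 in obese and 157.2 and 181.5 in control tissue. All obese readings were above all control readings. The log2 difference was 0.94 ± 0.22 (SE), with an unadjusted p of 0.0053 and a limma adjusted p of 0.46, so it did not pass. Cpa3, the carboxypeptidase of mast cell granules, read 833.2 and 483.1 in obese and 342.7 and 430.1 in control tissue, and differed by 0.72 ± 0.28 (adjusted p = 0.58). Of 9 mast cell markers, these 2 included, 8 were higher in obese tissue, 6 of them with separated groups, and 0 past the adjusted threshold. Over all genes 3907 of 9011 were higher. The share separated upwards was 66.7% of these markers and 16.4% of all genes. The summed mast cell signal was 2353.9 and 1638 in obese and 1208.5 and 1341.5 in control tissue. Without obese replicate 1 the differences were 0.66 for Cma1 and 0.33 for Cpa3. The part of mast cell number in these 2 readings was not tested.

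Mme, the membrane endopeptidase neprilysin that degrades natriuretic peptides and angiotensins, was, like Npr3, highest on obese replicate 2, with 222.2 and 478.3 in obese and 209.4 and 199.9 in control tissue. The groups did not overlap, but obese replicate 1 was close to the control arrays. The log2 difference was 0.67 ± 0.35 (limma adjusted p = 0.67), 0.12 without obese replicate 2, and 1.23 without obese replicate 1, where it passed (adjusted p = 0.048). Anpep, the aminopeptidase that shortens angiotensin III, read 249.0 and 298.7 in obese and 309.3 and 460.0 in control tissue, and differed by -0.47 ± 0.22 (adjusted p = 0.64), by -0.18 without control replicate 2 and by -0.75 without control replicate 1. Agtrap, a protein that binds the type 1 receptor and promotes its internalisation, differed by -0.24 ± 0.17 (adjusted p = 0.74). Among the other angiotensin receptors, Agtr1b was above the floor on 1 array only, obese replicate 1 (36.4), and Agtr2 read 28.8 and 26.2 in obese and 31.9 and 26.0 in control tissue, just over the floor, with its second probe set under it on all arrays.

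Genes of mineralocorticoid and glucocorticoid handling were a mixed list of receptors, enzymes that make or convert corticoids, and response genes. In obese tissue 8 of 10 tested genes were higher, beside 3907 of 9011 genes. Groups were separated upwards for 2 and downwards for 1 (20% and 10%, beside 16.4% and 24% of all genes). None of the 10 passed limma's adjusted threshold, and 1 had an unadjusted p under 0.05. The median was 0.19, and -0.091 without obese replicate 1. Sgk1, a kinase induced by both mineralocorticoids and glucocorticoids, read 590.6 and 619.2 in obese and 421.6 and 325.5 in control tissue. Obese and control readings did not overlap, and the difference of 0.71 ± 0.16 had an unadjusted p of 0.0049 and an adjusted p of 0.46. Hsd11b2, the enzyme that inactivates glucocorticoid near the mineralocorticoid receptor, differed by 0.42 ± 0.18 (adjusted p = 0.62). The mineralocorticoid receptor Nr3c2 itself read 95.3 and 74.3 in obese and 77.9 and 77.2 in control tissue, and differed by 0.12 ± 0.20 with overlapping groups. At the other end Scnn1a, a sodium channel subunit, read 19.2 and 18.6 in obese tissue, both under the floor, and 23.8 and 26.1 in control tissue (adjusted p = 0.74). Fkbp5, a glucocorticoid-induced co-chaperone, differed by -0.15 ± 0.32 with overlapping groups. Of 10 measured markers of adrenal cortex and medulla 4 were tested, and 2 of them were higher with separated groups. Cyp11a1, which starts steroid synthesis, read 150.2 and 148.7 in obese and 81.5 and 55.4 in control tissue (1.15 ± 0.23, limma adjusted p = 0.40). Star, a cholesterol carrier of steroid-making cells, read 97.7 and 202.6 in obese and 61.8 and 41.6 in control tissue (1.47 ± 0.39, adjusted p = 0.47). Groups overlapped for the other 2 tested, Cyp11b1 (0.31 ± 0.36) and Th, which was lower (-0.42 ± 0.28). All 10 markers summed to 373.9 and 434.4 in obese and 275.2 and 196.5 in control tissue. The other 6 were not tested, and 4 of these, Hsd3b1, Nr5a1, Dbh and Chga, were under the floor on every array. Cyp21a1 and Pnmt were above it on control replicate 1 only. The part of steroid-making cells in the corticoid list was not tested.

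The natriuretic ligands were at the bottom of the signal range. Nppa, the atrial peptide gene, read 3.9 and 3.5 in obese and 4.1 and 4.9 in control tissue, and Nppb, the B-type peptide gene, 8.2 and 3.0 in obese and 4.5 and 5.5 in control tissue, all under the floor. Nppc, the C-type peptide gene, read 15.2 and 25.4 in obese and 11.8 and 11.2 in control tissue, so that only obese replicate 2 was above the floor. These 3 genes were not tested. Of the 4 tested genes of the list, 2 were higher and 2 lower with a median of -0.014 (0.065 with median centring), 0 passed limma's test and 0 had an unadjusted p under 0.05. Npr2, the receptor of the C-type peptide, read 119.5 and 131.0 in obese and 152.9 and 125.9 in control tissue, and differed by -0.15 ± 0.17. Furin, a protease that processes pro-peptides, read 179.7 and 163.9 in obese and 201.2 and 218.3 in control tissue. It had the lowest t (-0.29 ± 0.14, limma adjusted p = 0.65). Pcsk6 and the main probe set of Ide, the insulin-degrading enzyme, differed by 0.28 and 0.12 with overlapping groups. The other Ide probe sets gave -0.0021 and -0.093, also with overlapping groups.

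Of a list of guanylate cyclases, cyclic GMP kinases and cyclic GMP phosphodiesterases, 14 genes were tested. The cyclases in it act beside Npr1, not downstream of it. Prkg1, a cyclic GMP kinase, was not analysed here, and the kinase gene Prkg2 read 26.7 and 23.7 in obese and 22.4 and 30.4 in control tissue, near the floor. Of the 14 genes 8 were higher and 6 lower. Of them 3 were separated upwards and 1 downwards (21.4% and 7.14%, beside 16.4% and 24% of all genes). The median was 0.014, with 0 past limma's adjusted threshold and 2 at an unadjusted p under 0.05. Pde1b, a calmodulin-dependent phosphodiesterase, read 50.3 and 92.6 in obese and 29.8 and 18.1 in control tissue. Its difference of 1.45 ± 0.35 (adjusted p = 0.47) was, at this floor, the only one in this list that was both separated and at least 2-fold, as were 1.14% of all probe sets. With a pseudocount of 16 in place of the floor the difference was 1.10, and lowering the floor to the 10th percentile gave 1.56. Pde2a, a phosphodiesterase that cyclic GMP itself activates, read 443.9 and 398.7 in obese and 631.5 and 500.9 in control tissue, and differed by -0.42 ± 0.16 (adjusted p = 0.58), or by -0.25 without control replicate 1. Gucy2d, a membrane guanylate cyclase of the same family as Npr1, differed by 0.46 ± 0.23 (0.22 without obese replicate 2), and Pde9a, dim and overlapping, by -0.30 ± 0.30.

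In the endothelin system, Ece1, the enzyme that cuts big endothelin to its active form, read 938.1 and 1143.2 in obese and 902.3 and 727.1 in control tissue. Obese and control readings did not overlap, and the difference was 0.35 ± 0.17 (limma adjusted p = 0.65), 0.20 without control replicate 2 and 0.21 without obese replicate 2. Kel, whose human protein cuts big endothelin-3, read 23.3 and 29.5 in obese and 33.7 and 71.0 in control tissue, without overlap. It differed by -0.90 ± 0.38 (adjusted p = 0.62), by -0.36 without control replicate 2 and by -1.44 without control replicate 1. Kel is also a red cell gene. Slc4a1, the anion exchanger, read 49.1 and 81.6 in obese and 134.8 and 169.7 in control tissue. Alas2, of haem synthesis, read 544.2 and 521 in obese and 638.3 and 908.5 in control tissue. Both were highest on control replicate 2, as was Kel. Hbb read 3920.1 and 5022.9 in obese and 3802.6 and 4675 in control tissue, and was highest on obese replicate 2. The remaining blood markers, S100a8 and S100a9, were highest on control replicate 1 (25.2 and 93.6). Of 4 tested blood markers 3 were lower and 1, Hbb, higher, and 5 measured markers summed to 4575 and 5644.5 in obese and to 4694.5 and 5801.8 in control tissue. The part of blood in the Kel reading was not tested. Ecel1, an endopeptidase of the same family, read 19.5 and 18.4 in obese tissue, both under the floor, and 22.7 and 25.3 in control tissue (adjusted p = 0.805), and Edn2, the endothelin-2 gene, was above the floor on 1 array of each group. Of 5 tested genes 3 were higher and 2 lower. Groups were separated upwards for 1 and downwards for 2 (20% and 40%, beside 16.4% and 24% of all genes). The median was 0.0078 and changed sign with a lower floor. Of the 5 genes 0 passed limma's threshold and 0 had an unadjusted p under 0.05. Edn3 was not analysed here.

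**Figure D5:**
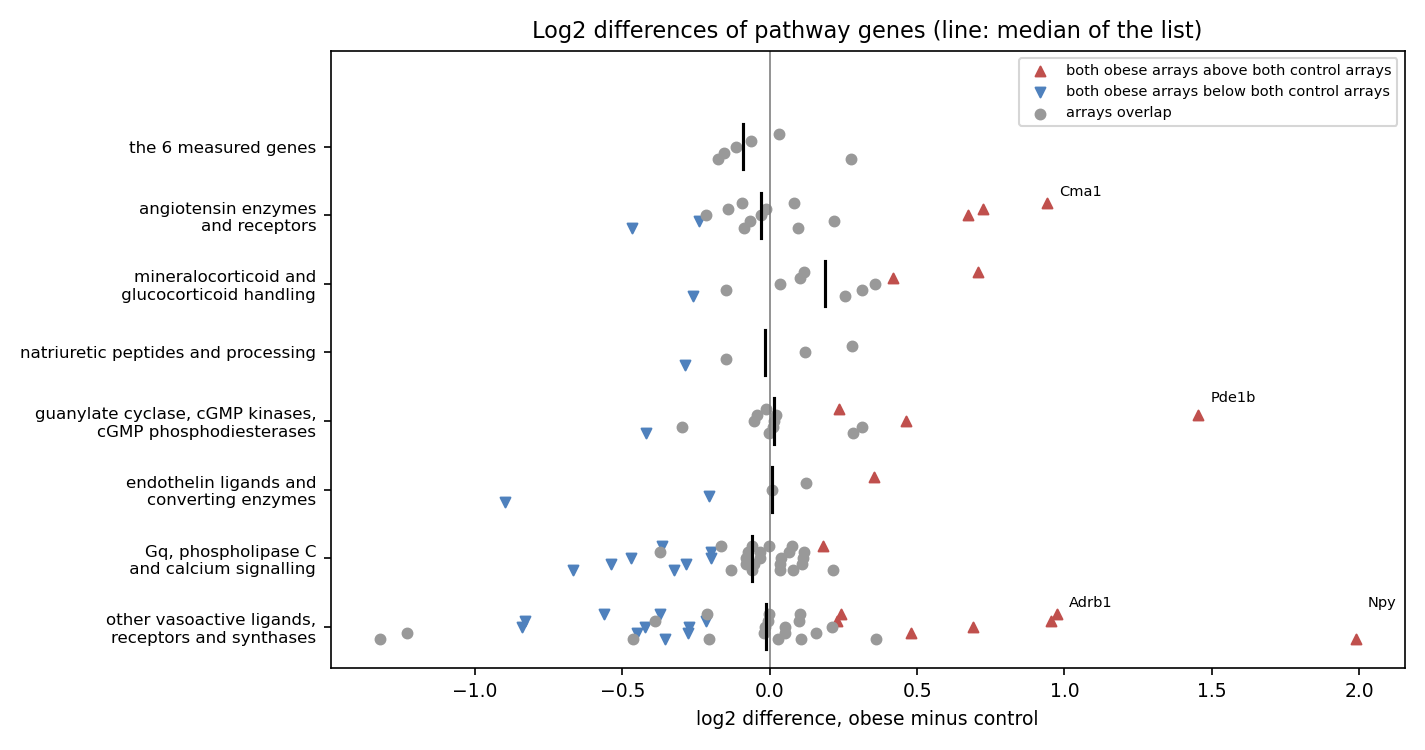
Log2 difference, obese minus control, of the main probe set of each tested gene in the 6 measured member genes and 7 pathway lists, with a vertical line at each list's median. Red and blue triangles mark genes whose obese arrays both lay above or both below the control arrays and grey circles those that overlapped. All 6 members are grey, and Npy, Pde1b, Adrb1 and Cma1 lie farthest to the right among the labelled genes.

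The type 1 receptor of angiotensin II and the endothelin receptors signal through Gq proteins and phospholipase C. Of 31 tested genes of that pathway 11 were higher and 20 lower in obese tissue, beside 3907 and 5104 of 9011 genes. Groups were separated upwards for 1 and downwards for 8 (3.23% and 25.8%, beside 16.4% and 24% of all genes). The median was -0.059 (0.021 with median centring). None of the 31 passed limma's adjusted test, and 2 had an unadjusted p under 0.05. These were the protein kinase C genes Prkcb, with 154.4 and 129.9 in obese and 231.6 and 218.3 in control tissue (-0.67 ± 0.15, adjusted p = 0.46), and Prkcd, with 226.9 and 185.1 in obese and 273.1 and 324.3 in control tissue (-0.54 ± 0.17, adjusted p = 0.52). The second Prkcb probe set gave -0.24. Both kinases are also known from leukocytes. Of the tested macrophage markers 11 of 11 were lower in obese tissue, as were 9 of 9 lymphocyte markers, beside 5104 of 9011 genes. The part of those cells in the kinase readings was not tested. At the other end Plcb3, a phospholipase C, and Grk5, a receptor kinase, differed by 0.21 and 0.18.

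Other vasoactive ligands, receptors and synthases served as a wider setting, with 36 tested genes, 16 higher and 20 lower. Groups were separated upwards for 7 and downwards for 10 (19.4% and 27.8%, beside 16.4% and 24% of all genes). The median was -0.011 (0.068 with median centring). In limma 0 passed the adjusted threshold and 5 had an unadjusted p under 0.05. Npy, the neuropeptide Y of sympathetic nerves, had the highest t and was separated and at least 2-fold apart (1.99 ± 0.38, adjusted p = 0.40). Adrb1, the beta-1 adrenoceptor, differed by 0.97 ± 0.21 with 1 control array under the floor, by 1.02 to 1.05 with the other scalings and by 1.73 once the floor was lowered to the 10th percentile. The lowest t belonged to Tbxas1, thromboxane synthase, with 110.8 and 117.4 in obese and 169.6 and 246.2 in control tissue (-0.84 ± 0.21, adjusted p = 0.47), and to the alpha-2A adrenoceptor Adra2a (-0.56 ± 0.18). Adra2a read 22.4 and 18.6 in obese tissue, the second under the floor, and 31.7 and 32 in control tissue.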

How the data were processed

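The authors' deposited table holds linear intensities for each probe set, and these were used unchanged. From the values, arrays had been scaled, since the mean after trimming 2% at each end was 150.026 to 150.03. The sources used here do not name the scanner, the software or the normalization. After leaving out 57 control probe sets, 12783 of 15866 had 1 gene symbol in the platform annotation, 312 several and 2771 none. Of these, 12748 were found by Entrez identifier in RefSeq's table (GRCr8), which changed 0 symbols. Signals under 20.8, the 20th percentile, were set to that floor before taking log2. Probe sets with at least 2 of 4 arrays above it were tested (12929) with limma 3.58.1 in R 4.3.3 (lmFit, eBayes with a trend), obese minus control, two-sided, adjusted by Benjamini-Hochberg over all. Errors and 95% intervals use the moderated standard error with 5.83 degrees of freedom. An exact permutation test of 2 against 2 has 0.333 as its smallest two-sided p and was left out. The number of arrays limits the precision.

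The members and gene lists were chosen with earlier results of these data known. List genes were named by rule: the 2 highest and 2 lowest t per list, and 12 set genes (such as Nppa) where measured. Lep, Cfd and Prkg2, and the adrenal and blood markers named, were added beside results after their values were seen. Simulated data for this comparison (12929 probe sets, 10 draws) gave calls for 67.2% of genes changed 4-fold and 19.2% of those changed 2-fold, with 1 false call per draw. Changes were placed only in probe sets with a mean more than 4-fold above the floor. These shares therefore do not cover Edn1 or the second Ace probe set. Alternatives were 3 scalings, other floors, a pseudocount of 16, filters, variance models, a replicate block and each array left out in turn.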

Additional observations from a re-analysis of the deposited data

How the results depend on the processing

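In limma, 0 of the 6 member genes passed the adjusted threshold under any of the 16 alternatives. With the replicate block this was also 0, as was the number of probe sets past the threshold, so the block changed no call. The labels do not say that a replicate number pairs arrays, and across probe sets the deviations of same-numbered arrays correlated with r = 0.0482. Over all probe sets the number past the threshold was 1 with median centring, 1 without a variance trend, 1 with robust variance, 3 with a pseudocount, 6 with no filter, and 0 to 43 with an array left out (43 without obese replicate 1, 40 without obese replicate 2). Separated probe sets at least 2-fold apart were 147, against 314 and 71 with the floor at the 10th and 40th percentile and 176 to 301 with an array left out. Npr1 kept its direction in 16 of 16 alternatives. With an array left out, log2 differences ran from -0.53 to 0.30 for Agt, -0.22 to 0.29 and -0.26 to 0.87 for the main and second probe set of Ace, -0.33 to 0.021 and -0.20 to 0.071 for those of Agtr1a, -0.11 to 0.67 for Npr3 and -0.28 to 0.15 for Edn1. Median centring gave 0.013 for the second Agtr1a probe set and 0.016 for Edn1, which was 0.030 with quantile normalization and 0.033 with cyclic loess.

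Other named genes that turned with an array left out were Agtr2 (-0.22 to 0.079, and 0.011 and 0.015 with median centring and quantile normalization), Fkbp5 (-0.59 to 0.29), Ide (-0.078 to 0.32), Nr3c2 (-0.062 to 0.30), Pcsk6 (-0.026 to 0.58), Pde9a (-0.69 to 0.098) and Plcb3 (-0.056 to 0.48). Edn2 gave -0.40 with the floor at the 10th percentile and -0.16 with a pseudocount. List medians moved for the endothelin list (-0.34 and 0.18 with the lower and higher floor, -0.16 with a pseudocount, -0.36 to 0.21 with an array left out), and for the natriuretic list (0.065 with median centring, 0.12 with the lower floor, -0.13 to -0.0030). They also moved for Gq signalling (0.021 with median centring, -0.13 to -0.015), other vasoactive genes (0.068 with median centring, -0.19 to -0.028), cyclic GMP genes (-0.14 to 0.19) and corticoid handling (-0.091 to 0.40). The causes were not tested. A left-out array leaves a lone array assumed to vary like the other group. Only 2 arrays a group, and signals near the floor for Adra2a, Agtr2, Edn2, Kel and the natriuretic ligands, limit these values.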
